A study of Mus musculus with 96 samples.

Results

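Chromatin accessibility at the genes of the eukaryotic translation initiation factors was followed in 2 liver cell types during fasting. The peaks taken were those whose nearest gene has a symbol starting with Eif and a digit, whose centre lies within 10 kb of that gene's transcription start site (TSS), and whose gene is not Eif4ebp1. In hepatocytes 97 of 46832 peaks met this rule, at 50 genes, and 76 of them lay within 1 kb of the TSS. In macrophages 81 of 30170 peaks met it, at 47 genes, 70 of them within 1 kb. The genes Eif1a, Eif2d and Eif4ebp3 had such a peak in hepatocytes only, and 68 peaks had the same position in both tables. In hepatocytes the members nearest to the limit were Eif1a +9686 and Eif1a +9259 on the inside and Eif1a +10189 on the outside, with mean levels of 127, 95.6 and 21.4 normalised reads. In macrophages they were Eif2ak2 -8622 inside and Eif2ak3 +11633 outside, with 64.3 and 35.4. Peaks are named by the gene and the signed distance in bases of the peak from its TSS, negative upstream. Naming by the nearest TSS does not show which gene a peak acts on, and the peaks of 1 gene share a locus.

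The assay was the transposase-accessible chromatin assay with sequencing (ATAC-seq), in which a transposase cuts open DNA and the reads piled up in a peak measure how open the site was. Nuclei came from livers of female HEP-INTACT mice, labelled as hepatocyte nuclei, or of female MAC-INTACT mice, labelled as macrophage nuclei, and were bound to beads by the INTACT tag before transposition; the promoter that drives the tag is not given in the sources used here. Food was withdrawn at ZT12, the start of the active phase, and mice were taken 3, 8, 16 and 24 h later, at ZT15, ZT20, ZT4 and ZT12, together with mice fed ad libitum at the same clock time. Each of the 16 groups held 4 mice, so a fasting effect is the difference between 4 fasted and 4 fed mice of 1 time of day, and macrophage nuclei of each mouse were run in technical duplicate and are given here as 1 value per mouse. The feeding labels of all macrophage samples carry the suffix lys, which the labels do not explain.

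Initiation begins when eIF2, loaded with GTP and the initiator transfer RNA, joins the small ribosomal subunit together with eIF1, eIF1A, eIF3 and eIF5. The cap-binding complex eIF4F, made of the cap-binding protein eIF4E, the scaffold eIF4G and the helicase eIF4A, brings the messenger RNA, and the complex scans to the start codon, where eIF5B joins the large subunit. Nutrients act on this machinery at a pair of points: the mTORC1 kinase complex frees eIF4E from its binding proteins, and kinases that phosphorylate eIF2 alpha block its recycling by the exchange factor eIF2B. The liver carries a heavy load of secreted-protein synthesis, and its translation is known to fall when nutrients are withheld.

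Promoters of 41 of the 50 genes were found in the RefSeq set of GRCm38.p6, the same assembly as the mm10 coordinates of the peaks. The 6 shown were chosen after the values were seen. They are 5 promoters that hold the E-box CACGTG, a site bound by basic helix-loop-helix factors, and that of Eif1ax, 1 of the 2 genes with a peak that opened at all 4 times in hepatocytes. The E-box lies beside or under a peak described below, except in Eif5a, whose described peak is the intronic macrophage site at +884. Each run holds the 250 bases before the TSS, 5′ to 3′ on the strand of the gene. E-boxes are in capitals in the first 5. The windows lie at chr16:20672477-20672726, plus strand (Eif4g1, scaffold of eIF4F), chr11:69672424-69672673, minus strand (Eif4a1, its helicase), chr3:138527018-138527267, plus strand (Eif4e, the cap-binding subunit), chr5:134639410-134639659, minus strand (Eif4h, a helicase cofactor) and chr11:69921387-69921636, minus strand (Eif5a, the hypusine-bearing factor).
Eif4g1: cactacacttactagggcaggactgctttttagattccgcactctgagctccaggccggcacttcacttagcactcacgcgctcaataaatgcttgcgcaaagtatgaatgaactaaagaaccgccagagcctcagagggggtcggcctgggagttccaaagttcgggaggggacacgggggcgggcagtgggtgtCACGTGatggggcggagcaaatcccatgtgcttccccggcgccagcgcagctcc
Eif4a1: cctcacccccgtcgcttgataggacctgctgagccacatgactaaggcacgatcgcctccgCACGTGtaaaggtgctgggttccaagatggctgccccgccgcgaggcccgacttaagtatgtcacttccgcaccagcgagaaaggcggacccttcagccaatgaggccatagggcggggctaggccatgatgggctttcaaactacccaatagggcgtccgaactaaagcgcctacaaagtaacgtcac
Eif4e: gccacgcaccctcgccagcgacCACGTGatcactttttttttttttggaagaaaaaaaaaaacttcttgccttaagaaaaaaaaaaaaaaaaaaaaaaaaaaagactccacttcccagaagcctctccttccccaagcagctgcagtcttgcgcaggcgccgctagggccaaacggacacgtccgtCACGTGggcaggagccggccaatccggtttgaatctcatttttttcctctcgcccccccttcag
Eif4h: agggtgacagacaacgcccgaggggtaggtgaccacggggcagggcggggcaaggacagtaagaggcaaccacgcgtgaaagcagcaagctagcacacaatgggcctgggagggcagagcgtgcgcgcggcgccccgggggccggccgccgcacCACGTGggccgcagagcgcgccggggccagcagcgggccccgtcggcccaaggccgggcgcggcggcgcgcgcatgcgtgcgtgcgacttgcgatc
Eif5a: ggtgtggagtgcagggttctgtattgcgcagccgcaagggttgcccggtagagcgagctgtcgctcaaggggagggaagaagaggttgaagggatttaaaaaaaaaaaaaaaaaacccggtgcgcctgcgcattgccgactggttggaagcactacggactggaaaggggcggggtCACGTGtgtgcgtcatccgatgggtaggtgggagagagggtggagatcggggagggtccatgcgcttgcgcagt
The Eif1ax window lies at chrX:159371928-159372177, plus strand, and capitals in it mark GC boxes (GGGCGG on either strand, overlapping where they repeat) and 1 ETS core (CCGGAAG on either strand).
Eif1ax: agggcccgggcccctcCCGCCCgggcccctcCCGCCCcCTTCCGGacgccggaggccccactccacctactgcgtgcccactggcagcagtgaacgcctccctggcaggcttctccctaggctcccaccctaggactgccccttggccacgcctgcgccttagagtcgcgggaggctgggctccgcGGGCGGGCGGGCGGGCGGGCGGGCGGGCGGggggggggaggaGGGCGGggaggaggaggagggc
The E-box lay 54 bases before the start in Eif4g1, 189 in Eif4a1, 228 and 64 in Eif4e, 96 in Eif4h and 74 in Eif5a. It was present in 9 of the 41 windows, 22.0%, the other 4 genes being Eif1b, Eif3f, Eif3k and Eif5a2, and in 8.94% of the 8941 windows of other genes with a promoter peak. Among the other motifs searched on both strands, the ETS core was in 24.4% of initiation factor windows and 14.5% of other windows, the NRF1 core GCGCATGC in 7.32% and 4.88%, the YY1 core AAGATGGC in 2.44% and 2.1%, CCAAT in 26.8% and 36.9%, and the GC box in 73.2% and 61.3%. The cyclic AMP response element TGACGTCA and the C/EBP-ATF element TGATGCAA were in none of the 41 windows and in 2.85% and 0.503% of the others. The median window held 61.2% G or C and 19 CpG, against 60.0% and 16 in the others. Of the 9 genes with an E-box, 8 had a promoter peak that opened at 24 h in hepatocytes, and of the 32 without, 22 had one. Among other genes the shares were 54.2% and 49.3%. For CCAAT the counts were 9 of 11 with and 21 of 30 without (other genes 55.2 and 46.4%). For the GC box they were 22 of 30 and 8 of 11 (54.1 and 42.2%). The ETS core had 5 of 10 with and 25 of 31 without (52.5 and 49.2%). NRF1 had 2 of 3 and 28 of 38, and YY1 1 of 1 and 29 of 40. These are counts of letters in a window and not measures of binding.

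The libraries held 2458156 to 6098645 reads in peaks in hepatocytes (median 4364781, 32 mice) and 1729720 to 4637873 in macrophages (median 3531871, 32 mice). All 10 hepatocyte marker genes had peaks within 10 kb in the hepatocyte table and none in the macrophage table, and all 10 macrophage markers had peaks in the macrophage table, against 1 of 10 in the hepatocyte table. Of 7 sinusoidal endothelial markers 2 had a peak in each table, and 3 of 6 monocyte and neutrophil markers had one in the macrophage table. In hepatocytes the summed level over 64 hepatocyte marker peaks was 3800 to 4130 in fed and 5420 to 5960 in fasted mice at 24 h, and in macrophages that over 25 macrophage marker peaks was 1680 to 1980 in fed and 1340 to 1650 in fasted mice at 16 h. The groups did not overlap in either case. In the hepatocyte table the sum over 2 endothelial marker peaks was also lower in fasted mice without overlap at 8 h (75.2 to 109 fed, 65.5 to 70.4 fasted), 16 h (78.6 to 106 and 44.5 to 78.5) and 24 h (69.4 to 97.9 and 62.6 to 68.1). At 3 h the 1 macrophage marker peak was lower (28.2 to 33.4 fed, 18.5 to 24.5 fasted) and the 1 stellate cell marker peak, of 6 genes, higher (10.3 to 24.7 and 51.5 to 68.7). The part of these shifts in the results below was not tested.

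In hepatocytes more initiation factor peaks were called opened at each later time of the fast. A peak was called opened or closed when limma gave a Benjamini-Hochberg adjusted p below 0.05 over all peaks of the table. At 3 h 6 of 97 peaks opened and 1 closed, beside 9.96% opened and 7.59% closed among the 26707 other peaks within 10 kb of a TSS. At 8 h 20 opened and 4 closed, with 19.5% and 9.18% of the other peaks. The counts were 33 and 4 at 16 h, with 19.8% and 7.45% of the other peaks, and 56 and 1 at 24 h, with 32.7% and 6.31%. The genes with an opened peak numbered 5, 15, 20 and 34 at the successive times. In shares, 6.19, 20.6, 34.0 and 57.7% of the members opened, so that the first was below and the second near the level of the other peaks, and the later ones were above it. Since nuclei of many cells were pooled in each sample, fewer cells with an open site and less accessibility per cell cannot be told apart. Without fasted mouse 3, or without fed mouse 1, 21 peaks opened at 16 h, and at 8 h 1 peak closed without fed mouse 3 and 2 without fed mice 1 or 4 or fasted mice 3 or 4. At 3 h no peak closed without fasted mouse 3 or fed mice 1 or 2, and 2 closed without fasted mouse 2.

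**Figure D1:**
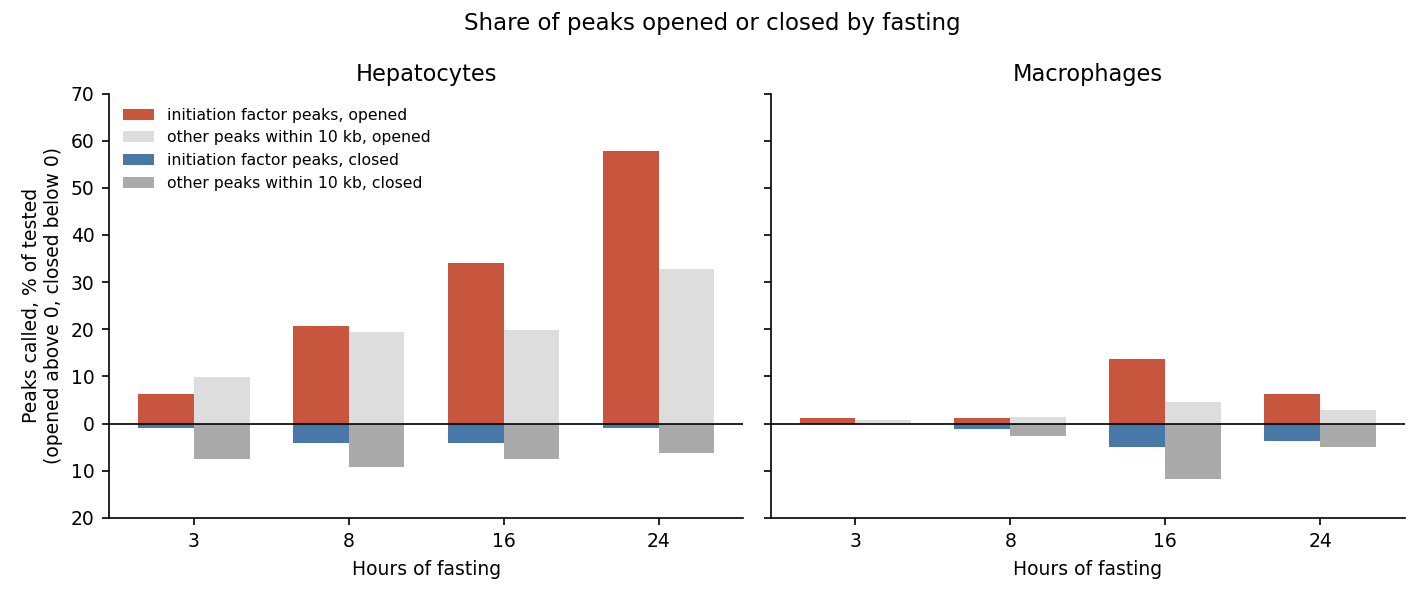
Percentage of tested peaks opened (above 0) or closed (below 0) by fasting at each time, for initiation factor peaks and, in grey, for other peaks within 10 kb of a TSS, in hepatocytes (left) and macrophages (right). In hepatocytes the share of initiation factor peaks that opened rose from 6.19% at 3 h to 57.7% at 24 h.

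The sizes were small. The median log2 fold change over the 97 peaks was -0.01, 0.17, 0.21 and 0.38 at 3, 8, 16 and 24 h, that over the other peaks within 10 kb 0.00, 0.11, 0.14 and 0.22, and that over other peaks within 1 kb 0.01, 0.12, 0.16 and 0.26. At 24 h 47 of the 76 promoter peaks opened, 61.8%, beside 41.0% of 16275 other promoter peaks. Fold changes are on the log2 scale of normalised reads plus 2, which understates those of low peaks. The values moved with the scale between libraries: the median over all hepatocyte peaks at 24 h was 0.16 as deposited and 0.03 with edgeR's scaling, and the median of the initiation factor peaks moved with it from 0.38 to 0.24. At 24 h 21 members opened with quantile normalisation and 23 with DESeq2, 21.6 and 23.7%, beside 12.4 and 12.3% of the other peaks within 10 kb. With edgeR 6, 15, 19 and 28 members opened at the successive times, and 13.4% of the other peaks opened at 24 h beside 28.9% of the members. Quantile normalisation lowered the opened share of the members' calls from 89.2 to 75.0% at 16 h and from 98.2 to 87.5% at 24 h, and DESeq2 lowered it from 83.3 to 72.2% at 8 h and to 79.2% at 16 h. The same share among other peaks within 10 kb fell too. With quantile normalisation it went from 72.6 to 56.4% at 16 h and from 83.8 to 63.3% at 24 h. With DESeq2 it went from 68.0 to 53.7% at 8 h and to 54.6% at 16 h. The authors' deposited table gives 5, 14, 20 and 37 of these peaks as opened and 1, 4, 3 and 1 as closed at the successive times, by its own adjusted p below 0.05.

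A share that does not depend on the scale between libraries was higher in every fasted mouse late in the fast. Of all reads in peaks within 1 kb of a TSS, initiation factor promoters held 0.475, 0.464, 0.476 and 0.481% in the 4 fed hepatocyte samples at 24 h and 0.503, 0.505, 0.500 and 0.501% in the 4 fasted ones. At 16 h the values were 0.478 to 0.494% fed and 0.500 to 0.532% fasted, again with no overlap. The ranges overlapped at 3 and 8 h.

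**Figure D2:**
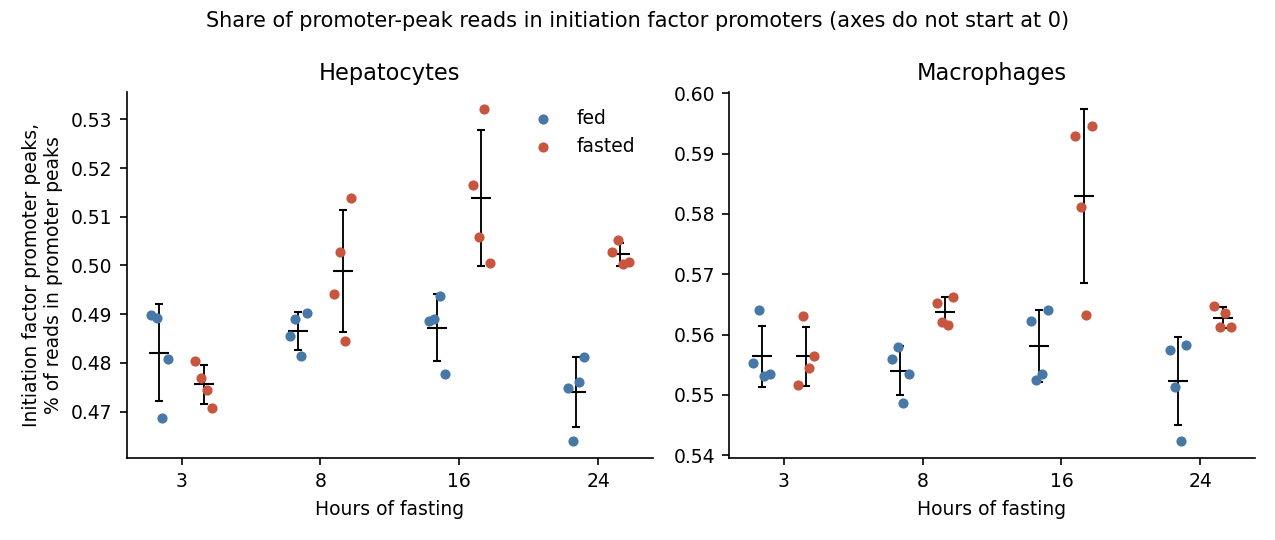
Reads in initiation factor peaks within 1 kb of a TSS as a percentage of the reads in all such peaks, for each mouse, by hours of fasting; points are mice, bars the mean and whiskers the SD (n = 4), and the axes do not start at 0. In hepatocytes all 4 fasted mice lie above all 4 fed mice at 16 and 24 h.

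For eIF4F with its helicase cofactors, the role with the most peaks, 1, 4, 9 and 19 of 27 peaks opened at the successive times (3.7, 14.8, 33.3 and 70.4%), beside 9.96, 19.5, 19.8 and 32.7% of the other peaks within 10 kb, and 1 closed at 8 h and at 24 h. At Eif4a1 -80, the promoter of the helicase eIF4A1 (chr11:69672403-69672603), fed mice at 24 h had 194, 177, 197 and 188 normalised reads and fasted mice 237, 284, 232 and 259. Every fasted mouse was above every fed mouse, and the peak was 1.33-fold higher (log2 0.41 ± 0.07 SE, limma adjusted p = 8.19e-05). It was 1.21-fold higher at 16 h (limma adjusted p = 0.00355) and differed by log2 -0.07 at 3 h and 0.11 at 8 h, neither of which passed. Under quantile normalisation the adjusted p was 0.0752 at 24 h and 0.185 at 16 h. At Eif4g1 -53, the promoter of the scaffold eIF4G1 (chr16:20672574-20672774), picked after its values were seen for the printed sequence, fed mice at 24 h had 147, 158, 199 and 186 reads and fasted mice 211, 246, 214 and 238. The groups did not overlap (log2 0.40 ± 0.09 SE, limma adjusted p = 0.00124; 0.227 with quantile normalisation). Of the promoter peaks of the cap-binding eIF4E, named for the same reason, Eif4e -285 had 32.4, 37.4, 36.1 and 42.0 reads fed and 51.6, 53.1, 45.4 and 51.6 fasted at 24 h. These groups were separate as well (1.35-fold, limma adjusted p = 0.0222), but edgeR gave an adjusted p of 0.113 and the call was lost without fed mouse 1 (0.0755) or fasted mice 2 (0.055) or 4 (0.0506). Eif4e -87 was 1.21-fold higher without overlap and did not pass (adjusted p = 0.075). Eif4g1 +395, annotated as intron, opened at 3 h, with 50.7, 37.6, 31.5 and 42.1 reads fed and 68.5, 60.5, 62.2 and 56.9 fasted (1.52-fold, adjusted p = 0.00382). It did not pass at 8 or 16 h and was 1.43-fold higher at 24 h (adjusted p = 0.00992 by limma and 0.0508 by edgeR).

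The helicase cofactors eIF4B and eIF4H had opened peaks as well. Eif4b +685, an intronic site of eIF4B, had 26.9, 18.3, 25.2 and 14.9 reads in fed and 37.9, 37.9, 40.2 and 31.1 in fasted mice at 24 h, 1.70-fold higher (log2 0.76 ± 0.19 SE, limma adjusted p = 0.00268). Its groups did not overlap. The promoter peak Eif4h -92 opened at 8, 16 and 24 h; at 24 h it had 83.8, 81.1, 91.2 and 83.1 reads fed and 127, 136, 106 and 102 fasted (1.37-fold, adjusted p = 0.00371 by limma and 0.0757 with quantile normalisation), and at 16 h its call was lost with edgeR, adjusted p = 0.0696. Eif4h +67, a neighbouring promoter peak, also opened at 8, 16 and 24 h. Its calls at 16 and 24 h were lost with median centring, quantile normalisation, DESeq2 and edgeR (edgeR adjusted p = 0.0828 and 0.131). At 8 h its call was lost with quantile normalisation (limma adjusted p = 0.0546) and DESeq2 (0.0545). The 1 peak of the 97 that closed at 24 h was the promoter of Eif4e3, which encodes a cap-binding relative of eIF4E. Eif4e3 -102 had 36.1, 39.0, 49.7 and 33.2 reads in fed mice and 20.0, 14.2, 20.1 and 19.6 in fasted mice. All fasted values were below all fed values, and the level was 2.02-fold lower (log2 -1.01 ± 0.23 SE, limma adjusted p = 0.0012).

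Among the eIF4E-binding repressors 2, 4, 5 and 5 of 9 peaks opened (22.2, 44.4, 55.6 and 55.6%, against 9.96, 19.5, 19.8 and 32.7% of other peaks), and 1 closed at 8 h and 2 at 16 h. Both peaks opened at 3 h lay at Eif4ebp3, which encodes a protein that holds eIF4E away from eIF4G. At its promoter peak Eif4ebp3 +90, fed mice at 3 h had 105, 107, 104 and 104 reads and fasted mice 156, 154, 157 and 156. The groups lay far apart within 3 h (log2 0.56 ± 0.10 SE, limma adjusted p = 0.000118). The fold was 1.70 at 8 h, 1.82 at 16 h and 1.58 at 24 h, with no overlap between fed and fasted mice at any time, and all 4 calls were kept under every alternative that was run. The upstream peak Eif4ebp3 -2673 was 2.40-fold higher at 3 h, with 37.9, 29.5, 32.2 and 30.5 reads fed and 92.9, 63.0, 96.0 and 74.2 fasted (adjusted p = 0.000324). It was 2.27-fold higher at 8 h, but its call at 16 h was lost with several alternatives, among them edgeR (adjusted p = 0.0811), and fed and fasted mice overlapped there. Within the same gene, Eif4ebp3 +2032, annotated as 3′ untranslated, went the other way. It and the next closed peak were named after their values were seen. At 16 h fed mice had 74.8, 81.6, 14.7 and 39.3 reads and fasted mice 6.91, 9.35, 30.5 and 13.1, so that 1 fed mouse lay among the fasted ones (log2 -1.62 ± 0.40 SE, limma adjusted p = 0.00204), and the call was kept under every alternative that was run. At 8 h its log2 value was -0.92 (adjusted p = 0.0711). The intronic Eif4ebp2 +1041 closed at 8 h (log2 -0.38 ± 0.11 SE, adjusted p = 0.00566) and at 16 h (log2 -0.27, adjusted p = 0.0456), with overlapping groups both times, and the 16 h call was lost without fasted mice 2 (0.136) or 3 (0.172) or fed mice 2 (0.0933) or 3 (0.148). Eif4ebp2 -194, the promoter of a second eIF4E-binding protein, had log2 fold changes of 0.00, 0.23, 0.35 and 0.37, of which the last 3 passed. At 24 h it had 176, 192, 191 and 186 reads fed and 235, 259, 213 and 262 fasted, with no overlap, and with quantile normalisation the adjusted p at 24 h was 0.223.

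**Figure D3:**
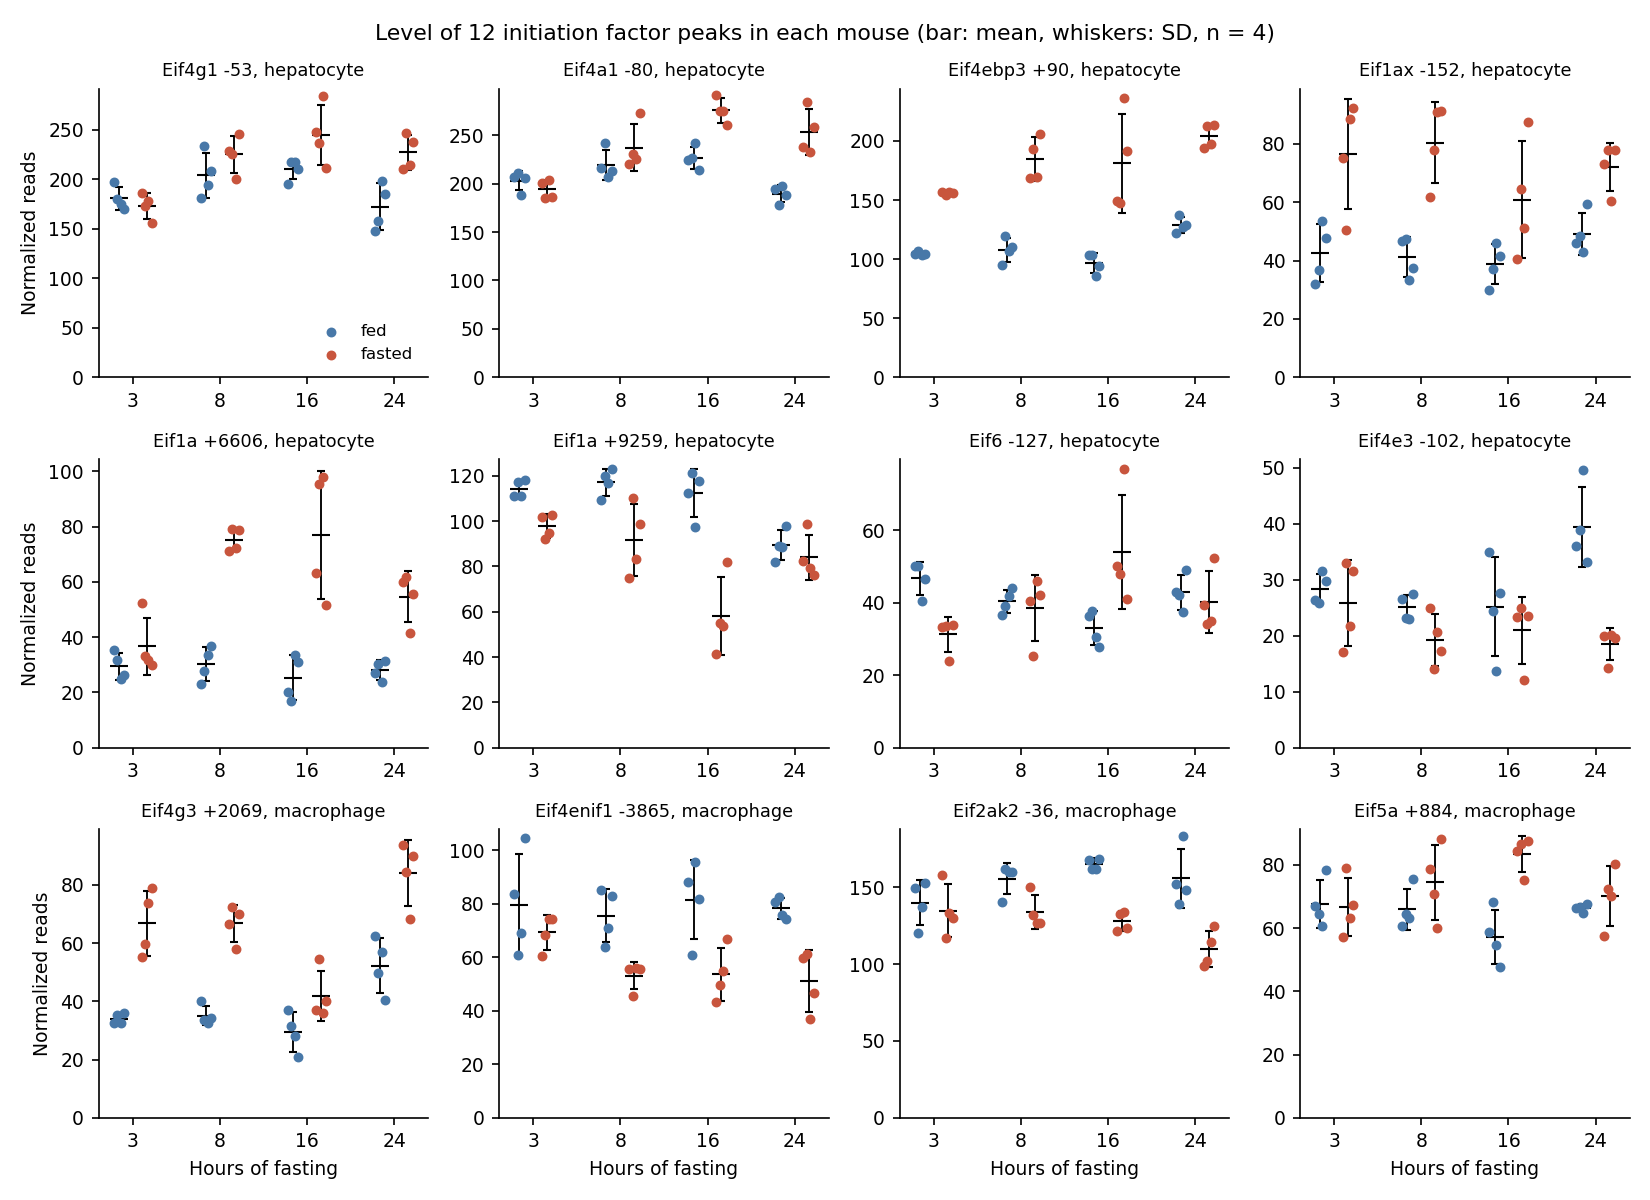
Normalised reads of 12 initiation factor peaks in each mouse, by hours of fasting, fed and fasted; points are mice, bars the mean and whiskers the SD (n = 4), and each axis starts at 0. Eif4ebp3 +90 is higher in all fasted than in all fed hepatocyte samples at each time, and Eif4e3 -102 is lower at 24 h.

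Among the factors of scanning and start codon selection, 2, 8, 8 and 13 of 20 peaks opened at the successive times (10, 40, 40 and 65%, against 9.96, 19.5, 19.8 and 32.7% of other peaks), and 1 closed at 8 h and 2 at 16 h, all at Eif1a. Eif1ax -152 (chrX:159371926-159372126), the promoter of the X-linked eIF1A gene, opened at all 4 times. Fed mice at 8 h had 46.8, 47.4, 33.4 and 37.5 reads and fasted mice 61.9, 77.7, 90.8 and 91.0, and the lowest fasted mouse was above the highest fed one (log2 0.93 ± 0.19 SE, limma adjusted p = 0.000268). The fold was 1.75 at 3 h, 1.51 at 16 h and 1.45 at 24 h, with overlap between groups at 3 and 16 h, and the call at 24 h was lost with median centring (adjusted p = 0.0667), quantile normalisation (0.0892), edgeR (0.102) and DESeq2 (0.111).

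The autosomal eIF1A gene, Eif1a, had neighbouring intronic peaks that moved in opposite directions. At Eif1a +6606 fed mice at 16 h had 20.3, 16.7, 33.4 and 30.8 reads and fasted mice 63.0, 95.6, 97.8 and 51.5. The fasted mice were 2.89-fold higher without overlap (log2 1.53 ± 0.20 SE, limma adjusted p = 4.55e-07), and the peak also opened at 8 h (2.43-fold) and 24 h (1.87-fold). At Eif1a +9259 fed mice at 16 h had 113, 121, 97.3 and 118 reads and fasted mice 41.5, 55.0, 53.7 and 82.0. That site was 1.95-fold lower, again without overlap (log2 -0.96 ± 0.13 SE, limma adjusted p = 5.61e-07), and Eif1a +9686 beside it was 1.27-fold lower. By 24 h the +9259 site stood at 82.0, 89.1, 88.4 and 98.0 reads fed and 82.6, 98.6, 79.2 and 76.1 fasted and did not pass (adjusted p = 0.603).

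Eif1 -4297, an intergenic site upstream of the gene of eIF1, which guards start codon choice, had 48.6, 54.8, 55.7 and 58.3 reads fed and 112, 89.0, 113 and 112 fasted at 8 h. The fasted mice were 1.92-fold higher (log2 0.94 ± 0.17 SE, limma adjusted p = 4.13e-05), and the fold was 1.94 at 16 h, where 1 fasted mouse lay within the fed range. Its smaller change at 24 h, 1.34-fold, lost its call with edgeR (adjusted p = 0.177) and DESeq2 (0.200). Eif5 -2176, upstream of the gene of the GTPase-activating factor eIF5, had 18.4, 13.0, 20.9 and 15.5 reads fed and 36.3, 41.0, 31.6 and 48.3 fasted at 8 h, 2.18-fold higher without overlap (adjusted p = 0.000882). The promoter peak Eif5 -100 rose 1.34-fold at 24 h, with 180, 184, 220 and 199 reads fed and 250, 264, 244 and 294 fasted; with quantile normalisation the adjusted p was 0.121.

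In the eIF2 system 0 of 4 subunit peaks and 0 of 6 eIF2B peaks opened at 3 h, beside 9.96% of other peaks within 10 kb. At 8 h 0 of 4 and 1 of 6 opened, beside 19.5%. At 16 h 1 of 4 and 2 of 6 opened, beside 19.8%, so the counts were too small to set them apart from other peaks. Of the 4 eIF2 alpha kinase peaks, 0 opened at these times and 1 closed at 8 h. At 24 h 2 of the 4 eIF2 subunit peaks opened, 50.0%, beside 32.7% of other peaks. The larger change was at Eif2s3x -295, the promoter of the gamma subunit gene on chromosome X. It had 19.0, 23.1, 19.7 and 25.4 reads fed and 29.6, 35.1, 33.1 and 37.7 fasted, 1.51-fold higher without overlap (log2 0.60 ± 0.19 SE, limma adjusted p = 0.0136; DESeq2 0.0648). Of the 6 eIF2B peaks 4 opened at 24 h, 66.7%. All eIF2 subunit and eIF2B peaks lay within 1 kb of the TSS. At Eif2b4 -10 (chr5:31193049-31193249), the promoter of the delta subunit, fed mice at 24 h had 164, 136, 181 and 153 reads and fasted mice 218, 231, 212 and 218. These did not overlap (log2 0.47 ± 0.10 SE, limma adjusted p = 0.000451; 0.0744 with quantile normalisation), whereas at 3 h the change was log2 0.01 ± 0.10 SE.

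Peaks of the eIF2 alpha kinases had the lowest median log2 fold change of the roles at 24 h, 0.15 over 4 peaks at 3 genes. By calls, 2 of the 4 opened at 24 h, 50.0%, both with overlapping groups. This stood beside 32.7% of other peaks within 10 kb and 41.0% of other promoter peaks. Eif2ak4 -114, the promoter of GCN2, the kinase that senses uncharged transfer RNA, had 300, 334, 320 and 321 reads fed and 368, 375, 326 and 372 fasted at 24 h. One fasted mouse lay within the fed range, and the 1.13-fold change (limma adjusted p = 0.033) had an adjusted p of 0.209 with median centring and a log2 value of -0.08 with quantile normalisation. Eif2ak3 -264, the promoter of the endoplasmic reticulum kinase PERK, was 1.19-fold higher at 24 h with overlapping groups (adjusted p = 0.0353), which became log2 -0.01 with quantile normalisation. Eif2ak2 -36, the promoter of the double-stranded RNA kinase PKR, was 1.26-fold lower at 8 h (adjusted p = 0.0324), with 128, 115, 136 and 132 reads fed and 114, 79.1, 114 and 101 fasted.

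For eIF3, the large scaffold of the small-subunit complex, 6 of 18 peaks opened at 24 h, 33.3%. Among other peaks within 10 kb 32.7% opened. Among other promoter peaks, the nearer match for eIF3, 41.0% opened. Of its 13 genes with a peak, Eif3c, Eif3e, Eif3f, Eif3g, Eif3h, Eif3i, Eif3l and Eif3m had no call at any time, and they were among the 13 genes of all 50 without one. Eif3h -126, its promoter peak of highest level, had 209, 191, 203 and 205 reads fed and 222, 210, 197 and 232 fasted at 24 h, overlapping and not passing (log2 0.09 ± 0.08 SE, limma adjusted p = 0.342). Eif3j1 -56, at the loosely bound subunit, opened at 16 and 24 h, by 1.16-fold and 1.23-fold, and lost both calls with quantile normalisation, edgeR and DESeq2 (edgeR adjusted p = 0.173 and 0.0734).

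For subunit joining and eIF5A, 0, 1, 6 and 5 of 9 peaks of Eif5b, Eif6, Eif5a and Eif5a2 opened at the successive times, and 1 closed at 3 h. The shares were 66.7% at 16 h and 55.6% at 24 h, beside 19.8 and 32.7% of other peaks. The 6 peaks opened at 16 h lay at only 2 genes, Eif6 and Eif5a, and the 5 at 24 h at 4 genes. Eif6 encodes the factor that keeps the large ribosomal subunit from joining too early. Its promoter peak Eif6 -127 closed at 3 h, with 50.0, 50.2, 40.5 and 46.4 reads fed and 33.4, 33.5, 24.0 and 34.0 fasted (log2 -0.56 ± 0.18 SE, limma adjusted p = 0.0195). At 16 h it opened, with 36.4, 37.6, 30.5 and 27.6 reads fed and 50.1, 47.8, 76.9 and 41.0 fasted (log2 0.65 ± 0.18 SE, adjusted p = 0.00497). The groups were separate at both of these times and overlapped at 8 and 24 h. The nearby Eif6 +406, annotated as 5′ untranslated, opened at 8, 16 and 24 h by 1.85-fold, 1.96-fold and 1.61-fold with no overlap.

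**Figure D4:**
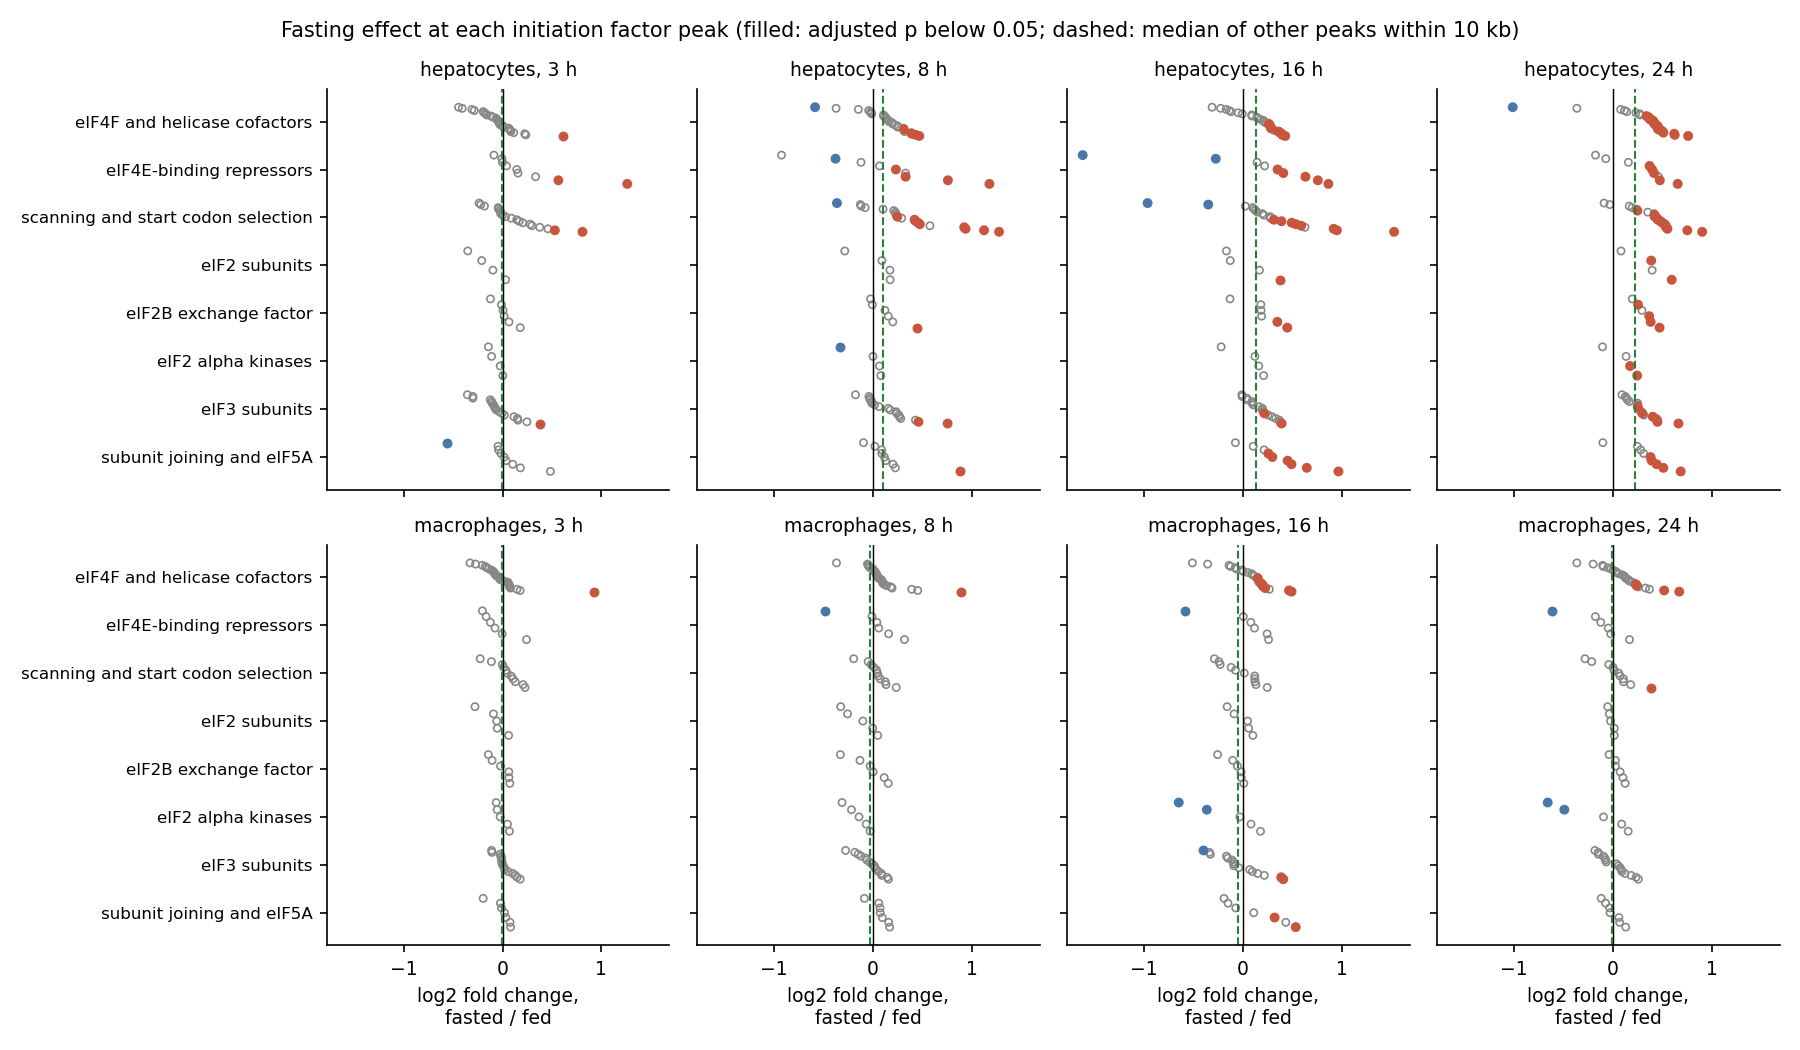
Log2 fold change, fasted over fed, of each initiation factor peak by role and time in hepatocytes and macrophages; filled points had an adjusted p below 0.05, and the dashed line is the median of other peaks within 10 kb. At 24 h the hepatocyte median as deposited was lowest, at 0.15, for the eIF2 alpha kinases, and the macrophage points lie nearer to 0.

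Over the 4 times, 66 of the 97 hepatocyte peaks, at 35 genes, opened at least once, 10 at 3 times or more, and 24 peaks had no call. The same counts were not taken among other peaks, of which 32.7% within 10 kb opened at 24 h alone. The moderated F test of limma for a fasting effect that differed between the times passed for 21 peaks at 16 genes, 21.6%, beside 21.1% of the other peaks. Among them were Eif4a1 -80 (adjusted p = 0.00465), Eif1a +9259 (0.00279), Eif6 -127 (0.00462), Eif4ebp2 -194 (0.0172) and Eif2b4 -10 (0.0245). Eif4ebp3 +90 (0.322) and Eif1ax -152 (0.563), which opened at every time, did not pass it. The count was 13 without fasted 3 h mouse 2 or fed 24 h mouse 2, 12 without fed 3 h mouse 2, and 11 with edgeR. In fed mice alone 18 peaks at 13 genes changed with the time of day, beside 19.0% of the other peaks, the Eif4ebp3 -2673 site (adjusted p = 0.0011) and Eif1 -1688 (0.00635) among them. This count was 9 without fed 16 h mouse 2 and 7 without fed 16 h mouse 3.

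Other genes of translation control were taken from lists of genes, whose counts stand against the 9.96, 19.5, 19.8 and 32.7% opened and 7.59, 9.18, 7.45 and 6.31% closed among other peaks within 10 kb. In the list of the mTORC1 arm, 8, 8, 7 and 17 of 50 hepatocyte peaks opened at the successive times (16, 16, 14 and 34%) and 0, 5, 4 and 3 closed, at 24 h near the level of the other peaks, with a median log2 fold change of 0.21 at 24 h. Ddit4, an inhibitor of mTORC1, had a peak at +8022 that rose from 38.3 ± 3.50 to 110 ± 45.6 reads at 3 h (mean ± SD, n = 4; log2 1.36 ± 0.25 SE, limma adjusted p = 0.00013) and was up by log2 2.14 at 8 h. Sesn2, a leucine sensor, had a peak at -3599 up by 1.28 at 8 h, and Pdcd4 -5267, at the gene of an eIF4A inhibitor, was down, at log2 -1.51 at 8 h and -1.52 at 16 h. Eif4ebp1, the best-known eIF4E-binding protein, had its +920 peak up by log2 0.57 at 3 h (adjusted p = 1.84e-05). For the arm downstream of eIF2 phosphorylation, 5, 12, 13 and 18 of 37 peaks opened (13.5, 32.4, 35.1 and 48.6%) and 2, 2, 4 and 2 closed. Chac1 +4547, at a target of the transcription factor ATF4, rose from 19.6 ± 4.23 to 121 ± 17.0 reads at 3 h (log2 2.52 ± 0.24 SE, adjusted p = 3.74e-09), while the promoter peak Atf4 -126 fell by 0.33 on the log2 scale at 3 h (adjusted p = 0.0064) with overlapping groups, and Atf4 +863 rose by 1.27 at 16 h. For cap and poly(A) binding partners 5, 9, 10 and 14 of 32 opened (15.6, 28.1, 31.2 and 43.8%) and 0, 2, 1 and 1 closed, Mknk2 -3416 at an eIF4E kinase gene being lower at log2 -2.01 at 8 h and -2.33 at 24 h. For reinitiation and recycling 0, 4, 3 and 6 of 11 opened (54.5% at 24 h) and 2, 0, 0 and 2 closed, and for elongation factors 1, 3, 4 and 7 of 19 opened (5.26, 15.8, 21.1 and 36.8%, near the other peaks) and 3, 3, 3 and 1 closed, Eef2 -164 being lower at 3 h (log2 -0.63, adjusted p = 0.00023).

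In macrophages few peaks passed, among the initiation factor peaks and among the others, and at 16 and 24 h the opened share was higher among the members. At 3 h 1 of 81 opened and 0 closed, beside 0.848% and 0.121% of 19809 other peaks within 10 kb, and the count of closed peaks was also 0 at an unadjusted p below 0.05, with edgeR and with DESeq2. At 8 h 1 opened and 1 closed, 1.23% each, beside 1.49% and 2.67%. At 16 h 11 opened and 4 closed, 13.6 and 4.94%, beside 4.54% and 11.8%. At 24 h 5 opened and 3 closed, 6.17 and 3.7%, beside 2.93% and 4.97%. The median log2 fold change of the members was -0.01, 0.04, 0.05 and 0.03 at the successive times, with -0.01, -0.03, -0.05 and -0.01 over the other peaks. The opened count at 16 h was 4 without fasted mouse 1 and 5 without fed mouse 1 or fed mouse 2, and 8 peaks closed without fasted mouse 2. At 24 h the opened count was 2 without fasted mouse 4 and 3 without fed mouse 1 or fed mouse 2. At 8 h 3 peaks opened and 2 closed without fasted mouse 1, 2 opened without fed mouse 4, and none closed without any 1 of fasted mice 2, 3 and 4 and fed mice 1, 3 and 4.

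The counts moved with the scale between libraries. The median over all macrophage peaks at 16 h was -0.10 as deposited and 0.04 after median centring. Centring raised the opened members to 1, 7, 27 and 14 and the opened share of their calls from 73.3 to 93.1% at 16 h, from 62.5 to 82.4% at 24 h and from 50.0% to all 7 at 8 h, and edgeR gave 1, 7, 26 and 8 opened, 96.3% of the calls at 16 h and 72.7% at 24 h, and DESeq2 95.7% at 16 h. Other peaks moved too, from 4.54% opened to 15.6% at 16 h with centring. The opened share of their calls went from 27.7 to 77.3% at 16 h and from 37.1 to 76.4% at 24 h. As a share of promoter-peak reads, initiation factor promoters held 0.549 to 0.558% in fed and 0.562 to 0.566% in fasted macrophages at 8 h and 0.542 to 0.558% and 0.561 to 0.565% at 24 h, without overlap, and 0.552 to 0.564% and 0.563 to 0.595% at 16 h, with overlap. The authors' deposited table gives 1, 1, 7 and 5 members as opened and 0, 1, 4 and 3 as closed.

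The macrophage peak that opened at all 4 times was Eif4g3 +2069 (chr4:137995425-137995625), in an intron of the gene of eIF4G3, a second scaffold of eIF4F. Fed mice at 3 h had 32.5, 35.2, 32.4 and 35.9 reads and fasted mice 55.2, 59.8, 73.7 and 78.8. All fasted mice were well above the fed ones (log2 0.92 ± 0.15 SE, limma adjusted p = 4.57e-05). The fold was 1.85 at 8 h, 1.41 at 16 h, where the groups overlapped, and 1.59 at 24 h. Within fed mice this site also changed with the time of day (F test, limma adjusted p = 0.00539), and 2 of the 81 members did so, the other at Eif3a, beside 1.32% of the other peaks. This count was 1 without fed 8 h mouse 2 or 3 or fed 24 h mouse 1 or 4.

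Further opened macrophage peaks lay at eIF4F genes and at Eif5a, which encodes a factor that eases peptide bond formation. At 16 h 7 of 25 eIF4F and cofactor peaks, at 5 genes, opened, 28.0%, beside 4.54% of other peaks within 10 kb. Fed and fasted mice did not overlap at 2 of the 7. Eif4a1 -80 had 312, 313, 336 and 314 reads fed and 353, 360, 359 and 345 fasted, a separate but small rise of 1.11-fold (limma adjusted p = 0.0334; 0.129 with quantile normalisation). Eif5a +884, in an intron, had 58.8, 68.2, 54.8 and 47.7 reads fed and 84.3, 86.8, 75.2 and 87.6 fasted at 16 h, 1.45-fold higher without overlap (adjusted p = 0.00178). At the eIF3 gene Eif3d, the -303 promoter peak had 65.7, 77.7, 67.3 and 67.2 reads fed and 95.9, 88.2, 86.7 and 95.0 fasted (1.31-fold, adjusted p = 0.0134). Eif4g2 -115, the promoter of the cap-independent scaffold DAP5, was 1.18-fold higher at 24 h, with 189, 196, 206 and 195 reads fed and 228, 226, 235 and 241 fasted (adjusted p = 0.0174; 0.0508 with quantile normalisation).

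The closed macrophage peaks lay at Eif2ak2, Eif4enif1 and Eif3l. At Eif2ak2 -36 (chr17:78882508-78882708), the PKR promoter, fed mice at 24 h had 152, 139, 183 and 148 reads and fasted mice 98.8, 102, 114 and 124. The fasted mice were all lower, by 1.41-fold (log2 -0.49 ± 0.09 SE, limma adjusted p = 0.000245). At 16 h the peak was 1.29-fold lower, without overlap, and edgeR gave an adjusted p of 0.0609 and median centring 0.115. The intronic Eif2ak2 -8622, upstream of this TSS, was 1.58-fold lower at 24 h, with 75.6, 80.1, 66.7 and 74.2 reads fed and 40.5, 45.1, 56.9 and 43.2 fasted (adjusted p = 0.00557), and at 16 h its groups overlapped and edgeR gave 0.059. Eif4enif1 -3865, upstream of the gene of a protein that carries eIF4E into the nucleus, was lower at 8, 16 and 24 h; at 24 h it had 80.6, 82.6, 75.6 and 74.2 reads fed and 59.7, 61.2, 36.8 and 46.7 fasted, 1.54-fold lower (adjusted p = 0.00361). Its call at 8 h was lost with median centring (adjusted p = 0.118) and edgeR (0.0636). Eif3l -49 was 1.32-fold lower at 16 h (log2 -0.40, adjusted p = 0.00518), and its call, but not its direction, was lost with median centring (log2 -0.26, adjusted p = 0.0741), quantile normalisation (-0.29, 0.056), edgeR (-0.29, 0.0551) and DESeq2 (-0.29, 0.123).

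No macrophage member passed the F test for a fasting effect that differed between the times, beside 2.28% of the other peaks; 13 had an unadjusted p below 0.05, edgeR called 2, and 1 passed without fasted 16 h mouse 2 or mouse 3. Over the 4 times 64 of the 81 peaks, at 36 genes, had no call. Of the 68 peaks at the same position in both cell types, 6 opened in both at 16 h and 4 at 24 h, and none opened in 1 cell type and closed in the other at any time. At 24 h 38 of them opened in hepatocytes without a call in macrophages. Neither these joint counts nor the peaks without a call were counted among other peaks. Of other peaks within 10 kb, 32.7% opened in hepatocytes at 24 h, and 2.93% opened and 4.97% closed in macrophages. Hepatocyte and macrophage tables were normalised apart, so these are 2 sets of calls side by side, and no difference between the cell types was tested.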

How the data were processed

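ATAC-seq signal was measured in peaks of hepatocyte and macrophage nuclei of 64 mice. BWA 0.7.5a-r405, SAMtools, HOMER, DESeq2 and the mm10 build are named in the submitters' processing notes without their roles. The authors' deposited tables give normalised signal per peak and mouse, with the authors' log2 fold changes and adjusted p-values. All signal values are whole reads divided by 1 factor per library, to within 5e-09 reads; how the factors were set is not given in the sources used here.

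For each cell type, limma 3.58.1 (R 4.3.3, with a variance trend) was fitted to log2(signal + 2) of all peaks with a mean of at least 10, with 8 group means over 32 mice, and p-values were adjusted by Benjamini-Hochberg over the table. All members passed that filter. The fit was tested on simulated data with the same spread setting for all peaks. No error in the scale between libraries was simulated, so that test does not bear on how the counts move with the scale. Titles carry mouse numbers, so p-values measure the spread between mice. Peaks named in the text were those with the largest changes without overlap between groups, those passing at 3 or more times, and, per role, that with the smallest F-test p and the promoter peak of highest level; a few others are marked as chosen later. The members, lists and rules were chosen with earlier results of these data known. Alternatives were other offsets (1 and 8), filters, scalings, edgeR 4.0.16 and DESeq2 1.42.0 on the reads, a block on sets of library numbers, promoter or single peaks per gene, and each mouse left out; reads in peaks as a covariate was added after seeing the data. Promoter sequences are from RefSeq (GRCm38.p6). Sites on chromosome 18 are described without sequence.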

Additional observations from a re-analysis of the deposited data

Results flagged for a closer look

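Groups of 4 mice were examined at the peaks named for the largest changes without overlap. The summed level and the read share of initiation factor promoters were examined as well, 106 groups in all. In 7 groups 1 mouse lay far from the other 3. Its gap to the nearest, as a share of the group's whole range, exceeded Dixon's 95% critical value. Chance marks about 5% of groups. All 7 were at peaks, so the share marked among the peak groups alone was higher than 7 of 106. In fasted hepatocytes the gap was 0.947 of the range for Eif6 -127 at 3 h (mouse 3, 24.0 reads against 33.4 to 34.0 in the others), 0.938 for Eif1 -4297 at 8 h (mouse 2, 89.0 against 111.7 to 113.2), 0.842 for Eif1a +6485 at 24 h (mouse 3, 25.3 against 31.9 to 33.2) and 0.922 for Eif4e3 -102 at 24 h (mouse 2, 14.2 against 19.6 to 20.1). In macrophages it was 0.961 for Eif4enif1 -3865 in fasted mice at 8 h (mouse 2, 45.7 against 55.5 to 55.9), 0.87 for Eif3d -303 in fed mice at 16 h (mouse 2, 77.7 against 65.7 to 67.3) and 0.896 for Eif4a1 -80 in fed mice at 16 h (mouse 3, 336 against 312 to 314).

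At 6 hepatocyte peaks chosen per role, the fasting effect differed between the 4 times by limma's F test, with adjusted p = 0.0245 at Eif2b4 -10, 0.0409 at Eif3j1 -56, 0.0172 at Eif4ebp2 -194, 0.00465 at Eif4a1 -80, 0.00279 at Eif1a +9259 and 0.00462 at Eif6 -127. At Eif6 -127 the log2 fold changes were -0.56, -0.09, 0.65 and -0.10 at 3, 8, 16 and 24 h, and at Eif1a +9259 they were -0.22, -0.36, -0.96 and -0.09. At Eif2b4 -10 they were 0.01, 0.16, 0.45 and 0.47.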

How the results depend on the processing

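Counts of initiation factor peaks depended on the scale between libraries and on the tool, and the cause was not tested. Opened hepatocyte peaks, 20, 33 and 56 at 8, 16 and 24 h as reported, became 13, 15 and 21 with quantile normalisation and 13, 19 and 23 with DESeq2, 13 at 8 h with median centring, and 19 at 16 h and 28 at 24 h with edgeR. Closed hepatocyte peaks became 2 at 3 h and 3 at 24 h with quantile normalisation, and 0 at 24 h with a mean of at least 30, a filter that leaves 89 members. The hepatocyte peaks whose effect differed between times fell from 21 to 11 with edgeR. Opened macrophage peaks, 1, 11 and 5 at 8, 16 and 24 h as reported, became 7, 27 and 14 with centring, 7, 26 and 8 with edgeR, 2 at 8 h and 22 at 16 h with DESeq2, 3 at 8 h with quantile normalisation and 6 at 16 h without a variance trend. With centring these were 8.64, 33.3 and 17.3% of members, beside 4.15, 15.6 and 8.54% of other peaks within 10 kb. With edgeR they were 8.64, 32.1 and 9.88%, beside 4.76, 12.1 and 6.8%. With DESeq2 they were 2.47 and 27.2% at 8 and 16 h, beside 2.68 and 9.2%. The 1 macrophage peak closed at 8 h became 0 with centring, quantile normalisation, no trend, edgeR or DESeq2 and 2 with the block on library sets, and the 4 closed at 16 h became 2 with centring and 1 with edgeR or DESeq2. Macrophage peaks whose effect differed between times, 0 as reported, were 2 with centring or edgeR and 1 without a trend or with reads in peaks as a covariate.

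Smaller member sets gave smaller counts by construction. The 76 hepatocyte peaks within 1 kb of a TSS held 3 opened at 3 h, 12 opened and 1 closed at 8 h, and 0 closed at 16 h. With 1 peak per gene (50 peaks), 2, 8, 15 and 30 opened, 1 closed at 8 h and 0 at 16 h, 13 had an effect that differed between times and 7 changed with time in fed mice. The 70 macrophage peaks within 1 kb held 0 opened at 3 h, 0 opened and 0 closed at 8 h, 2 closed at 16 h, 3 opened and 1 closed at 24 h, and 1 that changed with time in fed mice; with 1 per gene (47 peaks) these were 0, 0, 0, 2, 1, 1 and 1, with 6 opened at 16 h.

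With each mouse left out in turn, opened hepatocyte peaks ranged from 5 to 6, 14 to 25, 21 to 36 and 41 to 52 over the 4 times and closed ones from 0 to 2, 1 to 4, 3 to 4 and 1 to 1. Peaks whose effect differed between times ranged from 12 to 27 (12 without fed mouse 2 at 3 h) and those that changed in fed mice from 7 to 21 (7 without fed mouse 3 at 16 h). The 21 at 16 h came without fasted mouse 3 or fed mouse 1. Opened macrophage peaks ranged from 1 to 1, 1 to 3, 4 to 13 and 2 to 5, with 4 at 16 h without fasted mouse 1 and 2 at 24 h without fasted mouse 4, and closed ones from 0 to 0, 0 to 2, 3 to 8 (8 without fasted mouse 2) and 3 to 3. Those whose effect differed between times were 0 or 1, and those that changed in fed mice 1 or 2.

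Of 81 calls at peaks named by rule, 50 passed whichever mouse was left out and 36 under every alternative that was run; 65 passed with centring, 51 with quantile normalisation, 60 with edgeR, 57 with DESeq2 and 80 with the block. Quantile normalisation reversed 3 hepatocyte changes at 24 h, to log2 -0.037 at Eif2a +1, -0.0054 at Eif2ak3 -264 and -0.082 at Eif2ak4 -114.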

Other observations

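Peaks beyond 10 kb from the TSS of an initiation factor gene were not among the members. In hepatocytes 9, 11, 7 and 9 of 37 such peaks at 14 genes opened at 3, 8, 16 and 24 h and 1, 1, 3 and 4 closed, beside 13.1, 21.4, 18.0 and 15.4% opened and 14.1, 19.9, 19.9 and 18.1% closed among 19986 other peaks at this distance; no test compared these with the peaks near the TSS. At Eif1a +38824 fed mice at 3 h had 53.3, 48.7, 51.4 and 51.5 normalised reads and fasted mice 152, 110, 139 and 116, higher in every fasted mouse (log2 1.29 ± 0.16 SE, limma adjusted p = 2.28e-07), and the change was log2 1.47 at 8 h. Eif5 -23582 went the other way: fed mice at 24 h had 65.4, 63.6, 44.9 and 70.9 reads and fasted mice 19.3, 19.9, 14.3 and 12.3 (log2 -1.78 ± 0.24 SE, adjusted p = 1.55e-06).

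In macrophages none of 14 far peaks at 8 genes opened at any time by limma, near the 3.28, 1.92, 2.28 and 3.12% of other far peaks, and 0, 0, 5 and 3 closed, beside 28.5% and 14.7% of 10266 other far peaks closed at 16 and 24 h. Eif4g3 -39869 had 41.8, 35.2, 33.6 and 34.2 reads in fed and 13.9, 20.1, 24.5 and 22.3 in fasted mice at 16 h (log2 -0.80 ± 0.18 SE, limma adjusted p = 0.00124), below the fed range in every mouse, while Eif4g3 +2069 in the same cells opened at all 4 times.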
